A study of Mus musculus with 6 samples.

Results

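The genes described here encode 5 neuropeptide precursors: galanin (Gal, ENSMUSG00000024907), neuropeptide Y (Npy, ENSMUSG00000029819), vasoactive intestinal peptide (Vip, ENSMUSG00000019772), neurotensin (Nts, ENSMUSG00000019890) and pituitary adenylate cyclase-activating polypeptide, or PACAP (Adcyap1, ENSMUSG00000024256). They were chosen by their Ensembl identifiers as peptides known to be induced by nerve injury, and they were selected on the injured against uninjured contrast of these same data. The values below are therefore a description of that contrast and no test of it is given for these genes. The pairing of identifier and symbol is that of the selection. Of the 16976 identifiers in the count table, 4 of these 5 had a row, and Vip was not measured. The study precipitated LARP1, a protein that binds mRNAs beginning with a terminal oligopyrimidine (TOP) tract, from dorsal root ganglia (DRG) of wild-type mice, and sequenced the RNA that came with it as nanopore cDNA. There were 2 groups, each with 3 libraries: ganglia labelled injured, where the injury was to the sciatic nerve, and ganglia labelled uninjured. The labels do not say whether the uninjured ganglia came from other mice. No source used here gives the strain, age or sex of the mice, the kind or side of the injury, the time since it, or how many animals a library holds.

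Neuropeptides are cut from larger precursors in the secretory pathway, stored in dense-core vesicles and released from axon endings and cell bodies to act on G-protein-coupled receptors. In rodents, sensory neurons whose peripheral axon has been cut are known to begin making galanin, neuropeptide Y, vasoactive intestinal peptide and PACAP, while the nociceptor peptides substance P and CGRP decline. Galanin is linked to both the modulation of pain and the regrowth of sensory axons. PACAP and vasoactive intestinal peptide are related peptides that share receptors coupled to cyclic AMP.

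The injured libraries held 211337 to 211879 counts and the uninjured libraries 116186 to 116608. Within each group the libraries differed by little more than counting noise, with a variance between libraries 1.12 times that of counting over 6152 genes in the injured group and 1.16 times over 3827 genes in the uninjured group. Each group was therefore treated as 1 sample, its counts were summed, and no difference below has a check between animals. Any batch in which a group was handled cannot be told apart from injury. Intervals are 95% intervals, exact for levels and ratios and Wilson for shares, and cover counting error only. Amplified cDNA reads without molecular identifiers are not independent molecules, so the intervals may be too narrow even for that. Levels are CPM, counts scaled by the summed table total of a group to a common total. They give the RNA found in the precipitate. The libraries used here include no input and no control precipitate. How much RNA the tissue held, what fraction was bound to LARP1 and what was carried over without LARP1 cannot be told apart here. Neither can the number of cells making a peptide and the RNA per cell.

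Galanin RNA gave almost no reads in the uninjured precipitate and many in the injured one. Gal had 637, 648 and 685 counts in the injured libraries, against 2, 1 and 2 counts in the uninjured libraries. All injured libraries lay far above all uninjured ones, and the injured libraries varied by 3.91% (coefficient of variation of CPM), about the 3.90% that counting alone gives. Summed by group, the level was 3104 CPM in the injured group (95% exact Poisson interval 2969 to 3244) and 14.3 CPM in the uninjured group (4.65 to 33.4). The ratio was 217, with an interval of 92.7 to 668 that is wide because it rests on 5 uninjured counts. By read counts, which were not scaled by transcript length, Gal ranked at place 24 of the 12511 genes with a count in the injured group, where it held 0.310% of all counts. Its CPM was 3090 higher than in the uninjured group, the second-largest such difference of any gene in the table on this read scale.

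Galanin reads were rare in the uninjured group, and its injured counts can be set beside those of genes with the same uninjured counts. The contrast chose the peptide genes, so their ranks here describe it and do not test it. In the uninjured group, 635 genes had exactly 5 counts, as Gal did. Their median in the injured group was 10 counts, whereas Gal had 1970 there and the next-highest of these genes had 182. Adcyap1 also belonged to this class and ranked at place 3 in it.

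PACAP RNA gave as few reads as galanin RNA in the uninjured precipitate, 5 counts each, and more in the injured one. Adcyap1 had 37, 55 and 53 counts in the injured libraries, against 4, 0 and 1 counts in the uninjured libraries. Every injured library lay above every uninjured one, as for 29.1% of the 5045 genes with at least 30 counts. However, 4 of the 5 uninjured counts came from a single library. The level was 228 CPM in the injured group (95% exact Poisson interval 193 to 269) and 14.3 CPM in the uninjured group (4.65 to 33.4). The ratio was 15.9, with an exact interval of 6.68 to 49.9. Without uninjured replicate 1, which held those 4 counts, the ratio was 53.2, so the size of the PACAP difference depends on that library while its direction does not. The injured libraries varied by 20.5%, against 14.4% for counting alone.

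Neurotensin RNA was seen only in the injured libraries. Nts had 26, 45 and 33 counts there, against 0 counts in each of the 3 uninjured libraries. Its level was 164 CPM in the injured group (95% exact Poisson interval 134 to 199). In the uninjured group 0 of 349027 counts were found. The limit set for a count of 0 was 3 counts, or 8.60 CPM, and the exact Poisson interval reaches 10.6 CPM. Against the limit of 3 counts Nts was 19.1-fold higher in the injured group, with the injured level taken as measured. The exact lower limit of the ratio, which takes in the counting error of both groups, was 15.2. Of the 2600 genes with counts in the injured group and none in the uninjured group, only 5 had more injured counts than Nts. It was also the most variable of the 4 peptides relative to counting among injured libraries, at 27.8% against 17.0%, with the second library highest and the first lowest.

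Neuropeptide Y RNA followed the same pattern at a lower level. Npy had 14, 11 and 10 counts in the injured libraries, against 0 counts in every uninjured library. Its level was 55.2 CPM in the injured group (95% exact Poisson interval 38.4 to 76.7), and the uninjured limit was again 8.60 CPM. Against that limit Npy was 6.42-fold higher in the injured group, with the injured level taken as measured. The exact lower limit of the ratio, which takes in the counting error of both groups, was 4.95. Its injured libraries varied by 17.7%, less than the 29.3% that so few counts would give by counting alone. It ranked at place 40 by injured counts among the 2600 genes without an uninjured count. Whether Npy was absent or merely rare in the uninjured precipitate was not detectable at this depth.

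**Figure D1:**
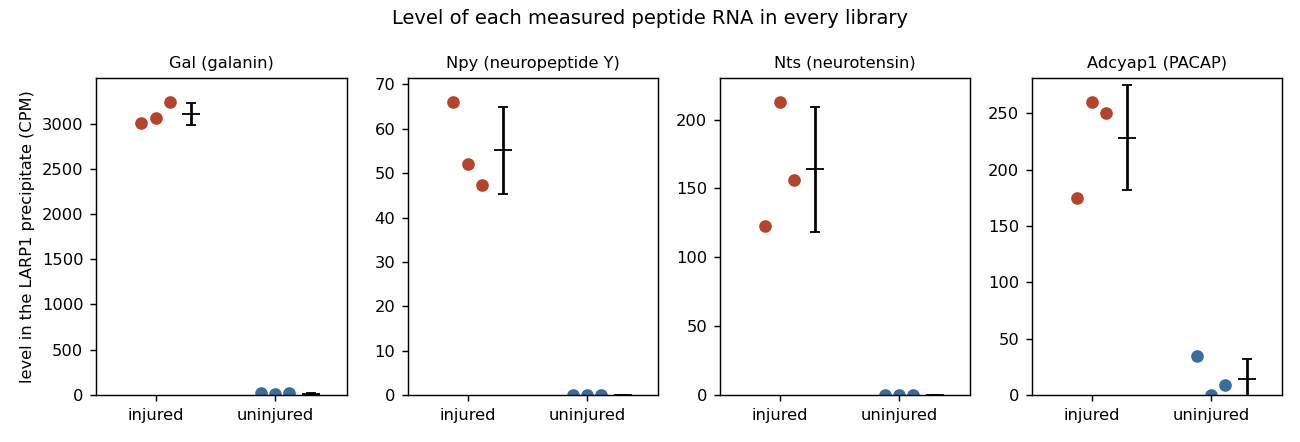
Level of each measured peptide RNA in CPM (vertical axis, a separate linear scale for each gene) in the 3 injured and 3 uninjured libraries; points are libraries, and the bar and whiskers beside them are the mean and SD over the libraries of a group, which were counted as 1 sample; the lower whisker of uninjured Adcyap1 ends at the axis. Every injured library lies above every uninjured one in all 4 panels, as it does for 29.1% of the 5045 genes with at least 30 counts. Gal reaches about 3104 CPM where Npy reaches about 55.1 CPM.

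The identifier for Vip has no row in the count table, so nothing is reported of vasoactive intestinal peptide, neither a level nor an absence.

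Together the 4 measured peptide genes gave 2254 counts, or 0.355% of the injured group, against 10 counts, or 0.00287% of the uninjured group. Their summed level was 3370 to 3694 CPM in the injured libraries, against 8.58 to 51.6 CPM in the uninjured libraries. The summed ratio was 124, with an exact interval of 67.3 to 259. Galanin set most of this value. Without it, the other 3 genes had 448 CPM in the injured group (95% exact Poisson interval 397 to 503), against 14.3 CPM in the uninjured group (4.65 to 33.4), and all 5 of these uninjured counts were those of Adcyap1. The ratio for these 3 genes was 31.2 (13.2 to 96.9).

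For each gene, its share of this peptide pool had overlapping 95% Wilson intervals in the 3 injured libraries. Gal took 89.2%, 85.4% and 87.7% of the reads of the 4 genes in the 3 injured libraries. Adcyap1 took 5.18%, 7.25% and 6.79%, Nts 3.64%, 5.93% and 4.23%, and Npy 1.96%, 1.45% and 1.28%. Over the summed reads the share of Adcyap1 was 6.43% (95% Wilson interval 5.49% to 7.52%), that of Nts 4.61% (3.82% to 5.56%) and that of Npy 1.55% (1.12% to 2.15%). The intervals of Adcyap1 and Nts, neighbours in this order, overlap slightly, while that of Npy lies below both. These are shares of reads. They were not scaled by transcript length, which was not available, and are not a comparison of transcript abundance between genes.

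**Figure D2:**
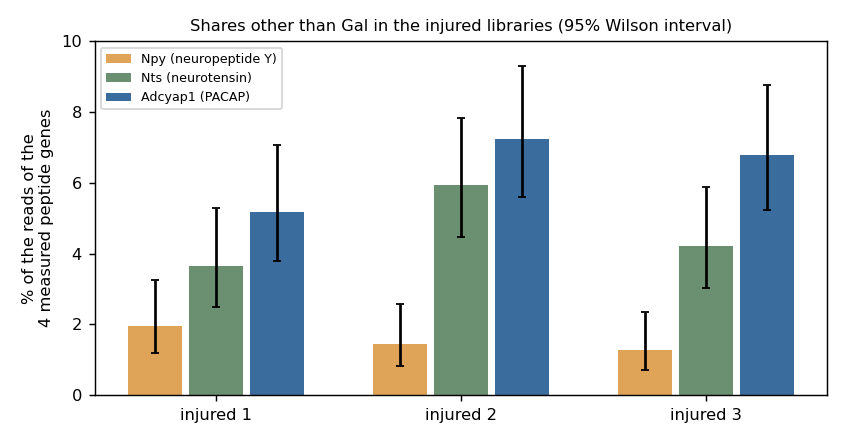
Shares of Npy, Nts and Adcyap1 in the reads of the 4 measured peptide genes (vertical axis, percent) for each injured library; bars start at 0 and whiskers are 95% Wilson intervals. Gal, at 85.4% to 89.2%, is left off so that the smaller shares can be read, and Npy is the lowest of the 3 in every library.

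All 4 measured genes stood in the upper part of the distribution of ratios, as their selection on this contrast would place them. Among the 5045 genes with at least 30 counts over the 6 libraries, the median ratio of injured to uninjured CPM was 1.10. The 90th percentile was 3.19 and the 99th percentile was 16.5. Genes with 0 uninjured counts entered with the limit of 3 counts. The upper percentiles therefore mix measured ratios with lower bounds and depend on depth. Gal exceeded the 99th percentile with its whole interval, which started at 92.7. The bound for Nts, 19.1, lay above that percentile, but its exact lower limit of 15.2 lay below. Leaving out 1 library at a time gave Nts bounds of 12.7 to 21.5, on both sides of it. The ratio of Adcyap1, 15.9, lay just under that percentile, with an interval of 6.68 to 49.9 that spans it. Nts and Adcyap1 are therefore not placed on 1 side of the 99th percentile. The bound for Npy lay between both percentiles, and its interval has no upper limit. A ratio of at least 4 was reached by 4 of the 4 measured peptide genes, beside 7.10% of those 5045 genes. For Npy and Nts this was fixed in advance: any gene with at least 30 counts and 0 uninjured counts passes 4 against the limit of 3 counts. All 4 genes also reached 30 counts only through their injured libraries. Every injured library lay above every uninjured library for 4 of the 4, beside 29.1% of the 5045 genes. In edgeR's quasi-likelihood test across the table, with a Benjamini-Hochberg threshold of 0.05, 24.9% of the 3158 genes tested were called higher in the injured reads. Of the peptide genes, Gal, Nts and Adcyap1 passed that test's filter on low counts and Npy did not. Each passed it through its injured libraries, so their calls are not given, and nothing is read from the counts above, because the contrast chose the genes.

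**Figure D3:**
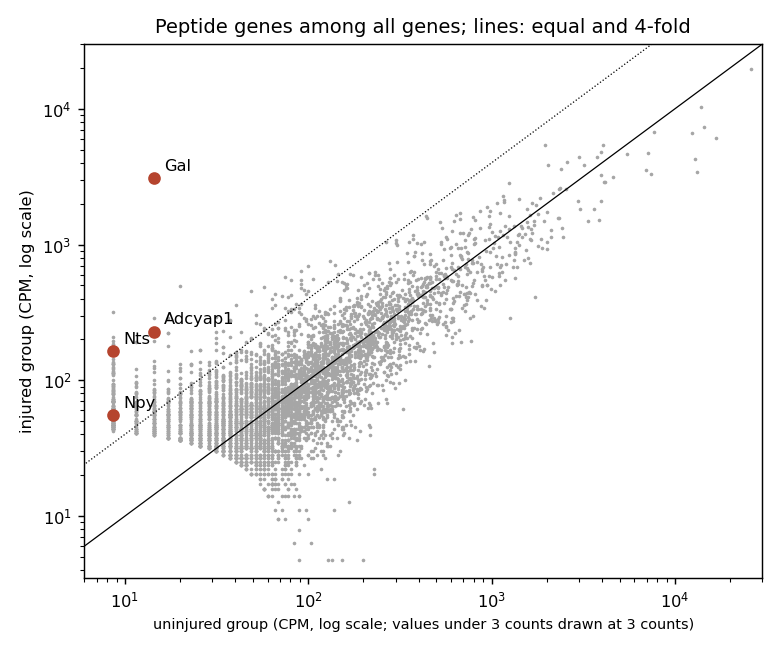
Level of each of the 5045 genes with at least 30 counts in the injured group (vertical axis) and the uninjured group (horizontal axis), both in CPM on log scales, with the 4 measured peptide genes in red; the solid line marks equal levels and the dotted line a 4-fold higher level in the injured group. Values under 3 counts are drawn at 3 counts, so Npy and Nts stand at the left edge at 8.60 CPM, and Gal lies alone above all other genes of its uninjured level.

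**Figure D4:**
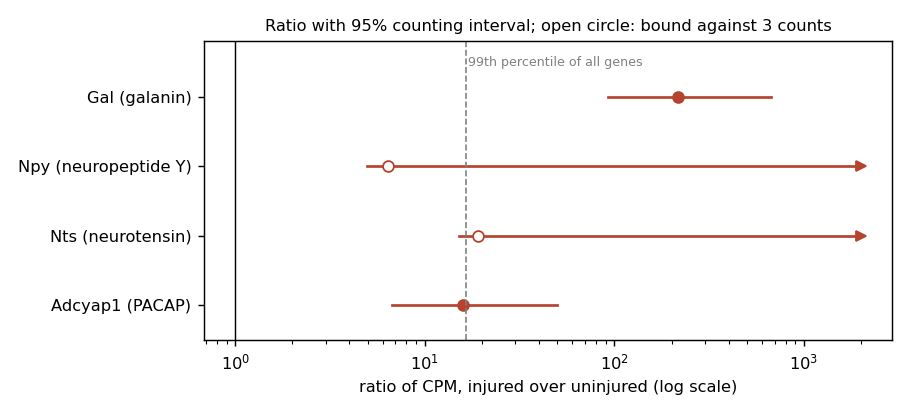
Ratio of CPM, injured over uninjured (log scale), for the 4 measured peptide genes with 95% exact counting intervals. Open circles are bounds against 3 uninjured counts with the injured level taken as measured. Their intervals start lower and run on to the right without limit. All 4 intervals lie above 1, that of Gal starting at 92.7, as the choice of these genes on this contrast would place them. They cover counting error only. The dashed line marks the 99th percentile, 16.5, of the 5045 genes with at least 30 counts, where 0 uninjured counts were set to 3.

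Genes with the most similar profile were sought among 7515 other genes with at least 10 injured counts, by the Euclidean distance of log2(CPM + 10) over the 6 libraries. Gal had no close neighbour. The nearest gene, ENSMUSG00000025348, was at a distance of 4.60 and had 102, 101 and 111 counts in the injured libraries, against 4, 1 and 2 counts in the uninjured libraries. The second, ENSMUSG00000032802, was at 5.19 and had 122, 123 and 119 counts in the injured libraries, against 5, 6 and 15 counts in the uninjured libraries. The nearest genes to Npy, Nts and Adcyap1 were much closer, at distances of 0.303, 0.334 and 1.22. The distance depends on level, however. By injured level Gal stood at place 24, and Npy, Nts and Adcyap1 at places 3279, 1153 and 813, where more genes have similar levels. The distances of Gal and of the other genes are therefore not like for like. In the injured libraries the nearest gene to Npy had 12, 13 and 11 counts and that to Nts 31, 38 and 32. Both had 0 counts in every uninjured library. The nearest gene to Adcyap1 had 54, 50 and 38 injured counts, against 3, 0 and 3 uninjured counts. The patterns of Npy, Nts and Adcyap1 were thus shared by other genes. The table pairs no identifier with a symbol, so these neighbours are not named further.

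Because LARP1 is known to bind the cap and the pyrimidine tract that follows it in TOP mRNAs, the annotated first bases of the measured genes are of interest. All 5 symbols were matched to RefSeq promoter windows of the mouse build GRCm38.p6, which is not the build of the count table (GRCm39). The first 15 bases from the annotated start of each measured gene are printed 5′ to 3′ on the gene's strand, with the first 5 in capitals, where a TOP tract would show a C followed by 4 or more pyrimidines. Adcyap1 has a pair of annotated starts.
Gal, chr19:3414530-3414544, minus strand: GGAGGcggcgctgag
Npy, chr6:49822710-49822724, plus strand: CGCTCtccgcatccc
Nts, chr10:102490404-102490418, minus strand: TGAAAgccagctgaa
Adcyap1, upstream start, chr17:93199017-93199031, plus strand: AACCAaaatattctg
Adcyap1, downstream start, chr17:93199168-93199182, plus strand: AGACGcagcctgaga
None of these annotated starts begins with such a tract, and 2.51% of all 32851 promoter windows do. Npy alone begins with C, and its second base is a purine. The start used in these ganglia may differ from the annotated one and was not measured.

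The promoters of the 4 measured peptide genes, all with higher levels in the injured group, were searched on both strands in the 250 bases before the annotated start for letters bound by factors known to act in injured or cyclic AMP-stimulated neurons. The motifs were the full cyclic AMP response element (CRE) TGACGTCA, its core TGACG, the AP-1 site TGANTCA, the STAT site TTCNNNGAA and the C/EBP-ATF composite TGATGCAA; the core is contained in the full one. These were found in 1.55%, 17.8%, 6.75%, 7.02% and 0.791% of all windows. The stretches of measured genes that hold a match are printed with the matched letters in capitals.
Nts, chr10:102490565-102490640, minus strand: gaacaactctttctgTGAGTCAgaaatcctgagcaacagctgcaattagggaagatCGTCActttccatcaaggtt
Adcyap1, chr17:93198911-93198945, plus strand: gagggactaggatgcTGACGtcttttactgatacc
Nts holds an AP-1 match 207 to 201 bases before its start and a CRE core on the opposite strand 166 to 162 bases before it. Adcyap1 holds a CRE core 91 to 87 bases before its upstream start. No match to any of the 5 motifs was found before the annotated starts of Gal and Npy, which says only that these letters are not in those windows. The matches are descriptions of sequence, and neither binding nor a part in the values above was tested.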

How the data were processed

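RNA co-precipitated with LARP1 was measured in 3 injured and 3 uninjured libraries. The authors deposited estimated counts, without normalization, for each Ensembl identifier. The submitters' processing notes name minimap2, Salmon and the build GRCm39 (mm39); their versions and parameters, and any filter, were not given in the sources used here. Reads shared by similar transcripts are divided by estimation in Salmon. All values were whole, so rounding changed 0 of them, and 0 columns were left unused.

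The genes and lists were chosen with earlier results of these data known. Counts were summed by group and scaled to CPM; ratios have exact Clopper-Pearson intervals, and a group at 0 counts was set to 3 counts over the group (Python 3.11.15, SciPy 1.17.1). Calls over all genes used edgeR 4.0.16 (R 4.3.3), with TMM, filterByExpr and a Benjamini-Hochberg threshold of 0.05, tested on simulated data; they compare the reads of 2 samples. All 5 peptide genes were named, and, by the likeness rule, the nearest genes of Gal. Alternatives were DESeq2 1.42.0, other scalings and filters, thinning, the replicate number as a block and leaving out each library. The 17 lists of pathway and cell type marker genes were not analysed here, since 0 of 16976 identifiers were matched to symbols; the labelled tissue was therefore not checked against markers. Depth was 211337 to 211879 counts per injured and 116186 to 116608 per uninjured library.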

Additional observations from a re-analysis of the deposited data

How the results depend on the processing

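All 39 alternative values of the 4 measured peptide genes kept a higher level in the injured group. That direction was all but fixed in advance, because every injured library lay well above every uninjured one and the contrast chose the genes. The alternatives therefore bear on the size of the ratios only. Leaving out 1 library at a time gave ratios of 180 to 241 for Gal, bounds of 4.27 to 6.87 for Npy and 12.7 to 21.5 for Nts, and ratios of 10.6 to 53.2 for Adcyap1. The lower bounds of Npy and Nts arise from leaving out an uninjured library, which reduces the depth against which 3 counts are set. The highest ratio of Adcyap1 arises without uninjured replicate 1, which held 4 of its 5 uninjured counts. The number of genes called was within 1.5 times that of the edgeR test (786 higher and 699 lower) under all 11 alternatives. It was 638 to 948 higher and 582 to 756 lower genes, and leaving out 1 library gave 638 to 836 and 582 to 756. The number of genes tested differed far more: 3158 in the edgeR test, 8686 with DESeq2 and 13236 without a filter. Leaving out 1 library gave 2603 to 4251 tested. The share of tested genes called higher, 24.9% in the edgeR test, was therefore much lower with DESeq2 and without a filter. The share of calls that were higher was 52.9% in the edgeR test with TMM factors, 60.3% when library totals replaced them, 62.0% when no filter was used and 57.2% with DESeq2.

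The replicate numbers are shared by the groups, but no label says that libraries with the same number are pairs, and they were not taken as such. Over 3158 genes the correlation between deviations of same-numbered libraries was 0.01, 0.00 and -0.04. These deviations are little more than counting noise, so the correlations cannot show whether the libraries were paired. A replicate block gave 750 higher and 677 lower genes. The geometric mean of the ratios of same-numbered libraries was 227 for Gal, and could not be formed for the other 3 genes, which had an uninjured library at 0. Depth limits what can be said of Npy and Nts, where 3 counts in the uninjured group correspond to 8.60 CPM.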
